A study of Mus musculus with 6 samples.

Results

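The ovary catalogue held 32 circular RNAs (circRNAs) whose host gene was Lphn3, out of 27999 circRNAs listed in all. The members were every row with that host name, and the gene had been selected on the deposited fold changes and p-values of its circles. In such a loop the end of an exon, the splice donor, has been joined back to the start of the same or an earlier exon, the acceptor. C57BL/6 mice, which are inbred and for which no treatment is named, gave whole ovaries at postnatal day 5 (n = 3 libraries) and at 6 weeks of age (n = 3 libraries). All RNA was treated with RNase R, which digests linear RNA, before strand-specific library preparation, and the labels do not say whether a library holds 1 animal or a pool. The deposited values compare groups named A and B, and the sources used here do not tie either letter to an age, so every difference is given as A against B.

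Lphn3 (latrophilin 3, current symbol Adgrl3) encodes an adhesion G protein-coupled receptor. From the outer end inwards, latrophilins carry a lectin-like domain, an olfactomedin-like domain, a hormone-receptor-like domain and an autoproteolytic GAIN domain, followed by the membrane-spanning helices and a cytoplasmic tail. Teneurins bind the lectin-like domain and FLRT proteins the olfactomedin-like domain of a neighbouring cell's receptor. The receptors are best known for their part in forming synapses.

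All 32 circles were exonic and lay on the plus strand of chromosome 5 (GRCm38). Their ends fell on the exons of a 27-exon coding isoform of 1534 residues (ENSMUST00000121707), which is used here to number exons. The junction sequence is what tells a circle from the mRNA, and those of the 5 circles marked as different in the authors' deposited table (p under 0.05 with a log2 fold change of 1 or more in size) are shown, together with the unmarked circle of smallest p, circRNA2146. Each runs across the junction, with the donor end in lower case and the acceptor start in capitals, from the GENCODE M21 transcripts.
circRNA2143, exon 5 to exon 4: agattgcagcccaagGTGTCTCAAGTGGGA
circRNA2147, exon 10 to exon 9: ggccccctgtcagagTTTTTCTTTGTCCTG
circRNA2146, exon 9 to exon 9: tggatagtagatcagTTTTTCTTTGTCCTG
circRNA2150, exon 13 to exon 11: cgcagcttgaacaagGGATTTCTACCACAG
circRNA2148, exon 14 to exon 11: agagcctatgtccagGGATTTCTACCACAG
circRNA2152, exon 22 to exon 15: tcttgacaatatcaaGCGATGGTGGAGACA
The pair circRNA2147 and circRNA2146 share their acceptor, as do circRNA2150 and circRNA2148, so within each pair only the donor side differs.

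Lphn3 circles shared splice sites with one another. The 32 circles used 12 acceptors and 14 donors of the coding isoform, and 14 acceptors and 12 donors were in no circle. Every circle shared at least 1 end with another: 30 shared their acceptor and 28 their donor. With more circles than sites of either kind some sharing is unavoidable, and no other host was compared for it. These sites could be joined in 113 ways with the donor at or after the acceptor, and 32 of those (28.3%) were listed. Exon 11 started the most circles (6), followed by exons 6 and 15 (5 each), and exons 6 and 25 ended the most (4 each). Circles covered 24 of the 27 exons. The first exon and the last 2, exons 26 and 27, were in none. Of the 7411 host genes, 15 had more circRNAs than Lphn3 and 4 others had as many.

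**Figure D1:**
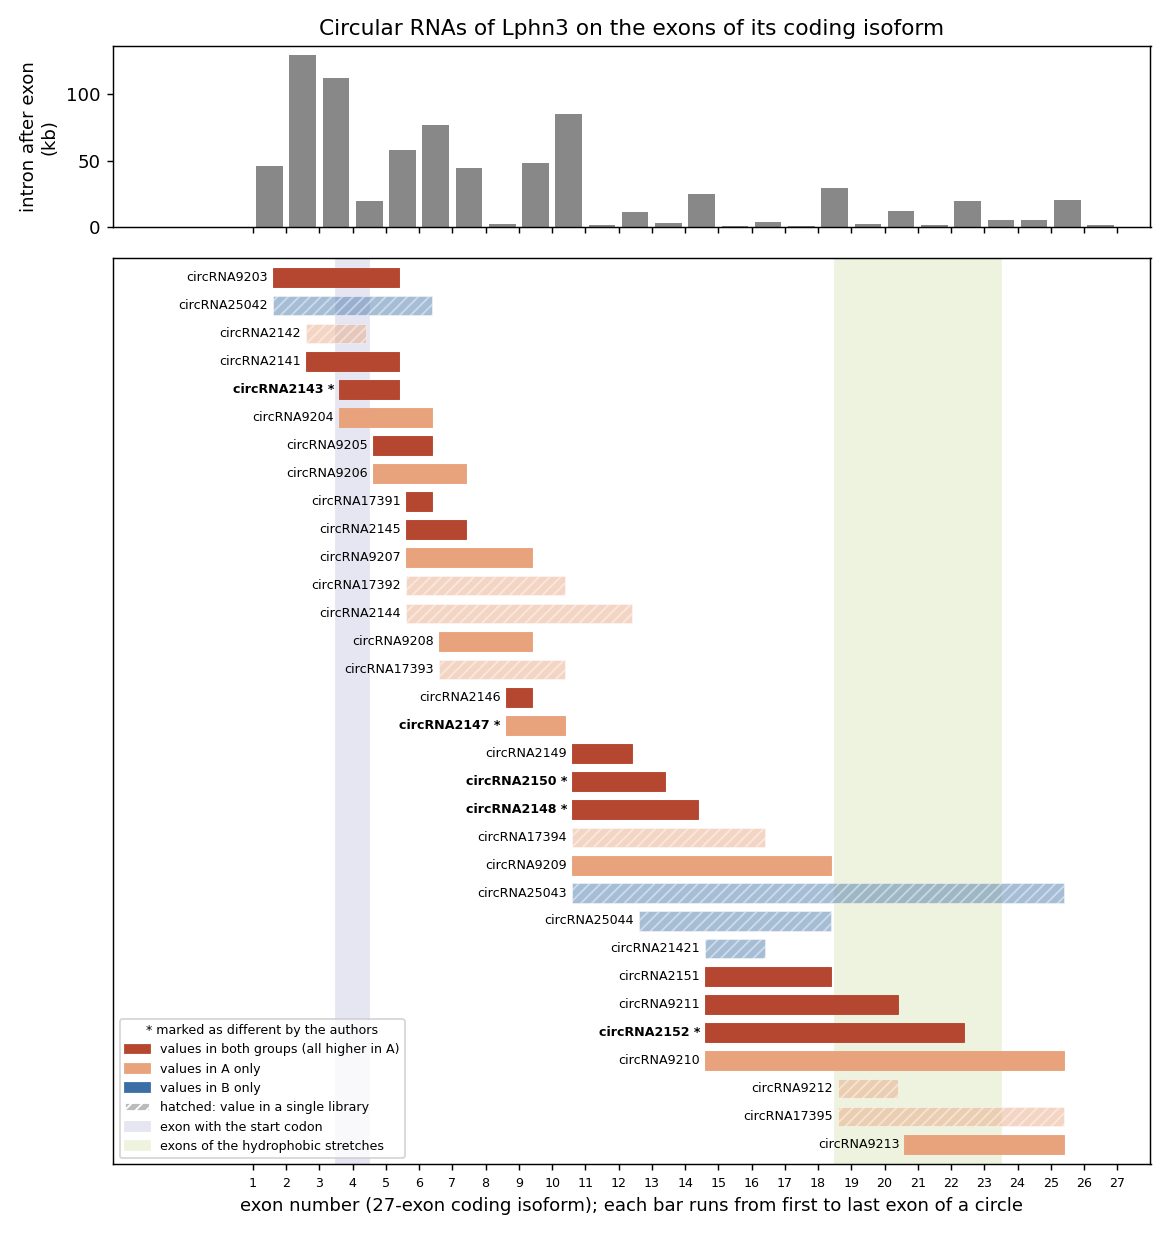
Each bar in the lower panel is an Lphn3 circle, drawn from its first to its last exon on the 27-exon coding isoform, coloured by the group that holds values and hatched where a single library does; the upper panel gives the length in kb of the intron after each exon. Bars that start at exons 6, 11 and 15 form stacks of 5, 6 and 5 circles, and exons 1, 26 and 27 hold no bar.

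The circles divided the receptor along its length. Translation starts in exon 4, at the capitals in cgagaacacagtcATGtggccaccacagct, on the plus strand of chr5:81310012-81310041, and 6 circles held this start codon. Exon 9, 801 nt long and coding for residues 200 to 467, is the exon of the olfactomedin-like domain. It was in 7 circles, and circRNA2146 was this exon alone, closed on itself. The other circle of 1 exon was circRNA17391, exon 6, with 214 nt. At the membrane end, a hydropathy scan (19-residue windows with a mean of at least 1.6) found 7 hydrophobic stretches between residues 951 and 1180, in exons 19 to 23. At least 1 whole stretch lay in 7 circles, and all 7 stretches lay in 3 of them (circRNA25043, circRNA9210 and circRNA17395). The marked circRNA2152 held 5. Exonic length ran from 214 to 2334 nt with a median of 708.5 nt, against 469 nt over all 25798 exonic circRNAs that could be placed on the isoform named for them.

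Exon content between the ends was taken from the isoform that the deposited table names, not measured. For 19 circles that isoform was ENSMUST00000132375, annotated as a target of nonsense-mediated decay. For 9 circles it was the retained-intron isoform ENSMUST00000149280 and for 4 the retained-intron isoform ENSMUST00000147226. The deposited exon count was the same as that on the coding isoform for 25 of the 32 circles.

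Most Lphn3 circles were higher in group A. The direction is the sign of the log2 fold change in the authors' deposited table, and it was towards A for 28 of 32 circles (87.5%), against 66.0% of all circRNAs. Many circRNAs had a value in a single library, which gives p = 0.423 in an unequal-variance test of 3 libraries against 3, and 11 Lphn3 circles (34.4%) had exactly that p in the authors' deposited table, against 62.0% of all. Among those 11, 7 (63.6%) were higher in A, against 63.5% of all single-library circRNAs. Higher values in A were listed for 21 of the 21 circles seen in 2 or more libraries, against 70.1% of the 10644 such circRNAs. Of these 21, 8 were listed in A only and so count as higher in A by definition. The 13 with values in both groups were all higher in A, against 67.3% of all such circRNAs. Circles of a gene share splice sites and are not replicates. The 4 circles listed in group B only (circRNA25042 of exons 2 to 6, circRNA25043 of 11 to 25, circRNA25044 of 13 to 18 and circRNA21421 of 15 to 16) were all single-library ones. In bulk tissue, fewer cells that make a circle and less of it per cell cannot be told apart.

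The gene was chosen for these values, so its counts describe the choice. The shared direction was also seen in other hosts: of 88 hosts with 10 or more circRNAs in at least 2 libraries, 21 (Lphn3 among them) had every one higher in A and 2 had every one higher in B. Of the 6 hosts with 21 or more, 2 (again with Lphn3 among them) had every one higher in A.

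Where both groups held values, the fold has a size. This was so for 13 of 32 circles (40.6%), against 29.0% of all circRNAs. Their log2 fold changes in the authors' deposited table ran from 0.12 to 3.24, with a median of 1.95, against a median of 0.42 over all 8107 such circRNAs. Of these 13, 11 (84.6%) were above 1, against 28.1% of all. After subtracting the catalogue's median, so that a shift common to all circRNAs drops out, the Lphn3 median was 1.54 and 12 of the 13 stayed above 0, the exception being circRNA9203 at -0.30. The other circles were listed in A only (15) or in B only (4), where the fold is infinite and no size can be given.

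The authors' deposited table marks 5 of the 32 circles as different, all higher in A. Over the whole catalogue 343 circRNAs (1.23%) carry the mark with higher values in A, 3.22% of those with values in 2 or more libraries, and 489 (1.75%) carry it in either direction. None of the 5 has an adjusted p under 0.05: the authors' deposited table gives each of them an adjusted p of 0.522, and the smallest of any circRNA is 0.425.

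Exon 11 started 2 of the marked circles. The circle of exons 11 to 14, circRNA2148 (chr5:81646410-81663424), was 8.80-fold higher in A, a log2 fold change of 3.14 with p = 0.00672 in the authors' deposited table. Its shorter neighbour circRNA2150, of exons 11 to 13 (chr5:81646410-81660447), was 8.50-fold higher, with a log2 fold change of 3.09 and p = 0.00857 in the authors' deposited table. The shortest of that stack, circRNA2149 of exons 11 to 12, was at 1.95 with p = 0.106 in the authors' deposited table and was not marked. The shared start gives the 3 circles a common acceptor sequence, GGATTTCTACCACAG, and they differ by 1 exon each at the other end.

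Over the receptor's amino end, the circle of exons 4 and 5, circRNA2143 (chr5:81309871-81329960), holds the start codon. It was 5.49-fold higher in A, with a log2 fold change of 2.46 and p = 0.0259 in the authors' deposited table, which makes it the marked circle closest to the threshold. The olfactomedin exon closed together with exon 10 in circRNA2147 (chr5:81511984-81560943) was listed in A only, with p = 0.0147 in the authors' deposited table. A circRNA with values in 2 libraries of 1 group cannot have p under 0.184 in an unequal-variance test, so circRNA2147 would have had values in all 3 libraries of A. The other 7 circles listed in A only in 2 or more libraries had p from 0.184 to 0.194 in the authors' deposited table. These were circRNA9204 (exons 4 to 6), circRNA9206 (5 to 7), circRNA9207 (6 to 9), circRNA9208 (7 to 9), circRNA9209 (11 to 18), circRNA9210 (15 to 25) and circRNA9213 (21 to 25). Listed in A in a single library were circRNA2142 (exons 3 to 4), circRNA17392 (6 to 10), circRNA2144 (6 to 12), circRNA17393 (7 to 10), circRNA17394 (11 to 16), circRNA9212 (19 to 20) and circRNA17395 (19 to 25).

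Exon 9 alone, circRNA2146, had the largest fold of the 13 circles with values in both groups, 9.46-fold higher in A with a log2 fold change of 3.24, yet p = 0.0963 in the authors' deposited table, the first value outside the threshold. At the membrane end, circRNA2152 of exons 15 to 22 (chr5:81688509-81741146) was 5.19-fold higher, at 2.38 with p = 0.0124 in the authors' deposited table. From the same acceptor, the authors' deposited table gives circRNA9211 (exons 15 to 20) a log2 fold change of 3.16 with p = 0.215 and circRNA2151 (exons 15 to 18) one of 1.85 with p = 0.108. A fold of similar size thus stood on either side of the threshold, and the spread between libraries behind each p was not analysed here.

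The 3 smallest folds of these 13 lay towards the start of the gene. The authors' deposited table gives circRNA9203 (exons 2 to 5) a log2 fold change of 0.12 with p = 0.949, circRNA9205 (exons 5 to 6) one of 0.87 with p = 0.486 and circRNA2141 (exons 3 to 5) one of 1.23 with p = 0.415. Of these, circRNA9203 and circRNA2141 share the donor of exon 5 with the marked circRNA2143. For exon 6 alone (circRNA17391) and exons 6 to 7 (circRNA2145) the values in the authors' deposited table are 1.73 with p = 0.563 and 1.80 with p = 0.148. By place of the first exon, the median in the authors' deposited table was 1.23 for starts in exons 1 to 4, 1.77 within exons 5 to 10, 3.09 for starts in exons 11 to 14 and 2.38 for starts in exon 15 or later, over 3, 4, 3 and 3 circles.

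**Figure D2:**
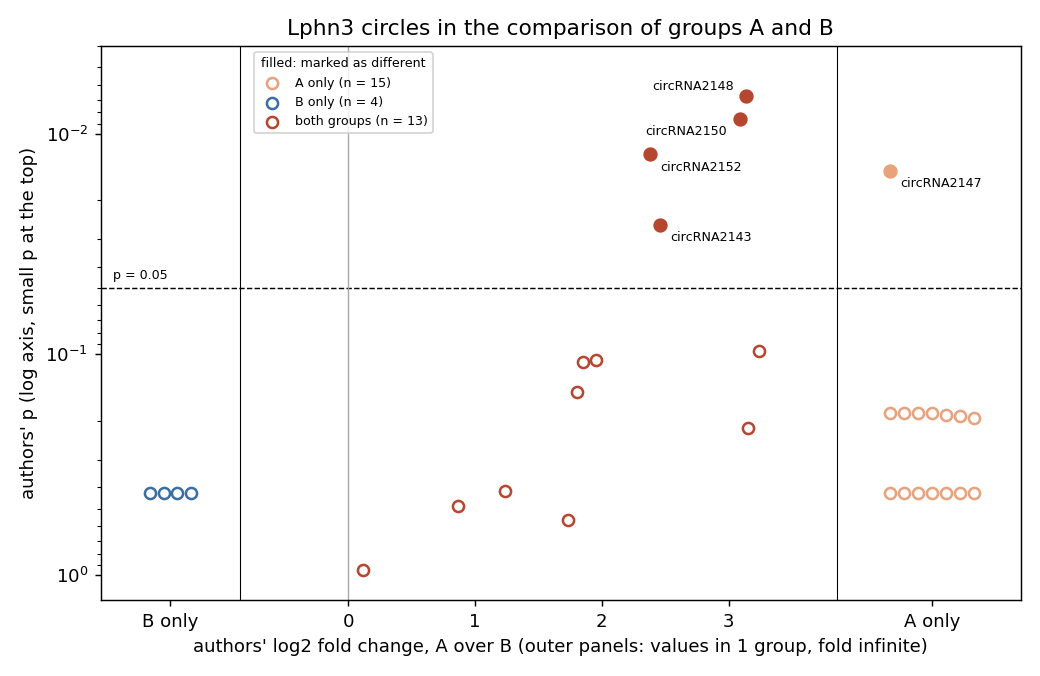
Each point is an Lphn3 circle at the authors' log2 fold change of A over B (horizontal) and the authors' p on a log axis with small p at the top (vertical), with circles listed in 1 group only in the outer panels and marked circles filled. All 13 circles with values in both groups lie to the right of 0, 4 of them and 1 listed in A only lie above the dashed threshold line, and the 4 listed in B only lie well below it.

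Lphn3 circles lay between very long introns, in a gene whose introns are long throughout. The coding isoform spans 775043 nt, and its 26 introns have a median of 15808.5 nt and range from 749 to 129844 nt. All 8 introns over 30000 nt come before exon 11. On the isoforms named for the circles, the mean of the 2 introns that flank a circle had a median of 48469.5 nt over the 32 circles (range 14444.5 to 120290.5 nt). The longest upstream intron there was 155115 nt, longer than any on the coding isoform. Over all placed exonic circRNAs the mean of both introns had a median of 5622 nt, and the Lphn3 median was at the 95.0th percentile. On the named isoforms, and relative to the median of the other introns there, the flanking introns were 2.17 times as long in the median, against 2.69 times over all, at the 41.4th percentile. They were longer than the other introns for 29 of 32 circles (90.6%), against 84.8% of all. These relative values depend on the isoform. With each circRNA placed on the isoform with the most exons that fits it, the Lphn3 ratio was 4.24 against 2.69 over all, at the 66.8th percentile. There, 31 of 32 circles had the longer flanking introns, against 84.9% of all. The length itself was then 46538.5 nt, at the 94.7th percentile. So the Lphn3 introns were long against the catalogue with either choice, while the ratio lay below the catalogue's median with one and above it with the other.

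Within the gene, the splice sites used in circles lay beside the longer introns. The 12 acceptors in use followed introns with a median of 37635 nt, and the 14 unused acceptors introns with one of 3371.5 nt. The introns after the 14 donors in use had a median of 22882 nt, and those after the 12 not in use one of 2321 nt. The ranges overlapped: an acceptor in use followed an intron of 2245 nt, and the 129844 nt intron after exon 2 had an unused donor. With such introns inside them, circles spanned a median of 48589 nt of the genome, against 6724.5 nt over all, and the longest, circRNA25042, spanned 320298 nt.

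**Figure D3:**
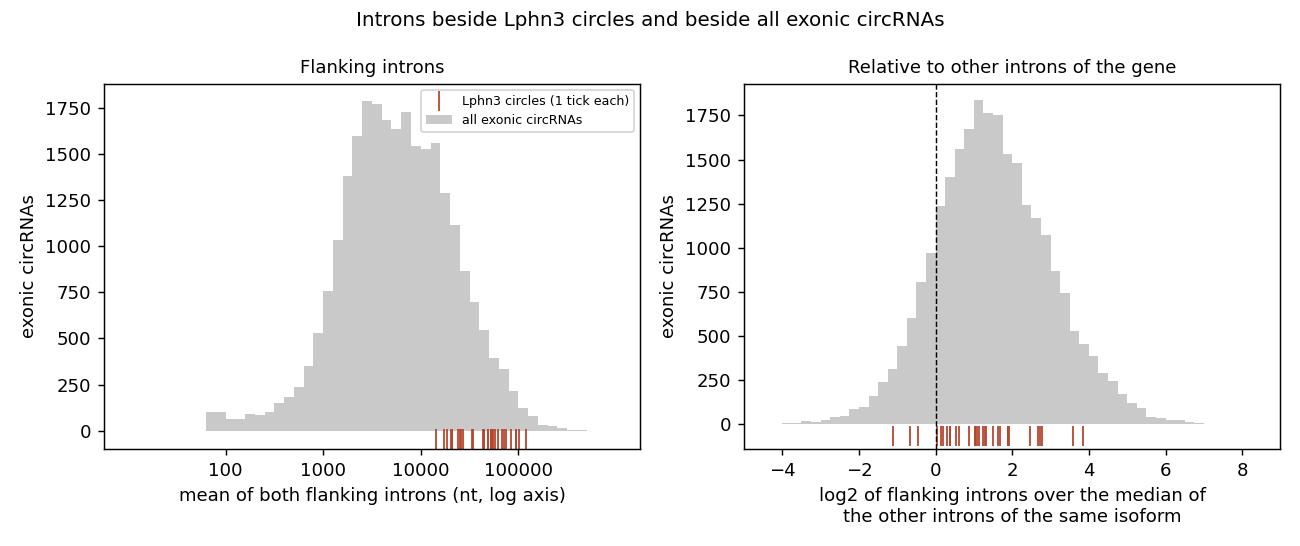
The left panel counts all exonic circRNAs by the mean length of both flanking introns (nt, log axis) and the right panel by the log2 of that mean over the median of the other introns of the isoform, with a tick for each Lphn3 circle. Lphn3 ticks crowd the right edge on the left, around their median of 48469.5 nt, and fall within the body of the distribution on the right, where the named isoforms were used, 29 of 32 of them above 0.

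Lphn3 circles had a length that is a multiple of 3 about as often as all circRNAs, and some could be read round without a stop. A reading frame runs on through the junction when the length of the circle is a multiple of 3, and that held for 12 of 32 circles (37.5%) on the isoforms the table names, against 38.6% of all. Of the 26 circles whose first exon is coding throughout, 10 had such a length on the coding isoform and ran without a stop in the frame of the mRNA through 3 laps, with lengths from 324 to 2307 nt. Among the marked circles this held for circRNA2147 alone, with 882 nt, and exon 9 by itself (circRNA2146, 801 nt) ran without a stop too. The other 16 met a stop after 88 to 575 codons. The count of 10 largely follows from the lengths, because these coding exons hold no stop in the frame of the mRNA. Only the codon across the junction could be new. No share over all circRNAs is given for this count. No reads of ribosomes were analysed here, and an open frame is a property of the sequence only.

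The other latrophilins, Lphn1 (Adgrl1) and Lphn2 (Adgrl2), gave fewer circles, and 4 of the 8 exonic ones of Lphn2 had ends paired with those of an Lphn3 circle. Lphn2 had 9 circRNAs, of which 8 were exonic. Lphn1 had 6, each in a single library, of which 3 were exonic and 4 were higher in A. Pairing internal exons in order where their lengths differ by at most 12 nt matched 18 exons of Lphn2 (ENSMUST00000106128) with Lphn3 exons, 11 of them of the same length, with a median sequence identity of 66.4% (50.5% to 78.1%). All 8 exonic Lphn2 circles started and ended in paired exons, but 18 of the 23 exons of that isoform were paired. For 4 of the 8, Lphn3 had a circle whose first and last exons were the paired ones. Of these Lphn2 circles, circRNA18541 and circRNA18542 each had a value in a single library. Only the end exons were matched, and those between can differ, as with Lphn3 exon 8, which has no paired Lphn2 exon. Lphn2 circles used 5 acceptors, and each of the 5 also started an Lphn3 circle, where 8 of the 18 paired Lphn3 exons do. They used 5 donors, of which 4 also ended an Lphn3 circle, where 11 of the 18 do. Of the 2 Lphn1 circles that could be placed on its isoform ENSMUST00000141158, 0 had both ends in paired exons.

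The junctions of the matched circles are shown, Lphn3 first and Lphn2 second, to give how far they resemble each other. They are written as above, with the donor end in lower case and the acceptor start in capitals.
circRNA9208, Lphn3 exon 9 to exon 7: tggatagtagatcagATGCAATAACAGAAC
circRNA10667, Lphn2 exon 4 to exon 3: ctgaccctgcccaagGTGCAACAATCGAAC
circRNA9211, Lphn3 exon 20 to exon 15: cggaacagacaaagtGCGATGGTGGAGACA
circRNA18543, Lphn2 exon 14 to exon 9: cgggacagtccaggcGCAATTGTGGACACG
circRNA9210, Lphn3 exon 25 to exon 15: catcgctcaacagagGCGATGGTGGAGACA
circRNA18541, Lphn2 exon 21 to exon 9: ctacccttaaccaagGCAATTGTGGACACG
circRNA9213, Lphn3 exon 25 to exon 21: catcgctcaacagagATGTTGGCTTCGCCT
circRNA18542, Lphn2 exon 21 to exon 15: ctacccttaaccaagTTGCTGGCTTCACGT
Of the 30 bases, 16 were the same between circRNA9208 and circRNA10667, 21 between circRNA9211 and circRNA18543, and 20 in each of the other pairs. In each pair 11 of the 15 acceptor bases matched, and 5 to 10 of the 15 donor bases. The counterparts are therefore similar but distinct sequences, and reads across one junction differ from reads across the other at 9 or more of these bases.

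**Figure D4:**
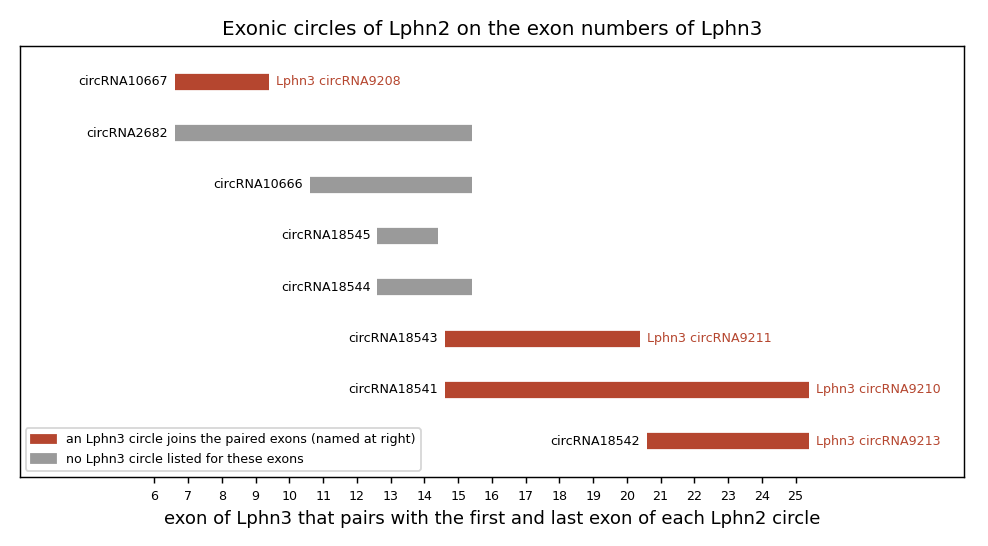
Each bar is an exonic Lphn2 circle, drawn from its first to its last exon on the number of the Lphn3 exon paired with it. The 4 bars in red have an Lphn3 circle whose first and last exons are the paired ones, named at the right, and the 4 grey bars have none listed.

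Values of the matched circles were compared only as the authors' deposited table gives them. circRNA18543 of Lphn2 has a log2 fold change of 1.75 with p = 0.561 in the authors' deposited table, and its Lphn3 counterpart circRNA9211 has 3.16 with p = 0.215. The other Lphn2 circle with values in both groups, circRNA10666, has 1.63 with p = 0.576 in the authors' deposited table. The 4 Lphn2 circles seen in at least 2 libraries were all higher in A, and 0 were marked in the authors' deposited table. The difference between Lphn3 and Lphn2 was not tested.

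Hosts that encode latrophilin ligands and partners were mixed in direction, with the teneurin gene Tenm4 apart from the rest of those counted. Of 17 such genes, 9 had circRNAs, 72 in all. By the authors' deposited table, 14 of the 29 seen in at least 2 libraries (48.3%) had higher values in A, and the median log2 fold change was -0.38, against 70.1% and 0.42 over all circRNAs. Tenm4 had 38 of the 72 circRNAs, and 4 of its 19 seen in at least 2 libraries were higher in A. Without Tenm4, a choice made after seeing the data, 10 of 10 from 5 hosts were higher in A, and the median of the 4 finite log2 fold changes in the authors' deposited table was 1.54. Tenm4 circRNA21243 was listed in B only with p = 0.0130 in the authors' deposited table. It was the 1 marked circRNA of the list's 72, where 1.75% of all circRNAs carry the mark. Tenm3, also a teneurin, had 9, with 4 of 4 higher in A, and Tenm2 had 1 in a single library. Of the Netrin receptor hosts, Unc5c had 9, with 2 of 2 higher in A, and Unc5b had 2 in single libraries. Of the presynaptic neurexins, Nrxn3 had 5, with 2 of 2 higher in A, and Nrxn2 had 1. For the scaffold proteins of the postsynapse, the authors' deposited table gives Shank2 circRNA1833 a log2 fold change of 3.06 with p = 0.0622, and Shank3 had 3 circRNAs with a finite value of 0.71. No circRNA was listed for Flrt1, Flrt2, Flrt3, Tenm1, Unc5a, Unc5d, Cntn6 or Shank1.

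Other adhesion G protein-coupled receptors were also mixed. Circles were listed for 9 of 26 genes, 47 in all. Of the 15 seen in at least 2 libraries, 7 (46.7%) had the higher value in A. By host the split was uneven, at 1 of 7 for Gpr98 and 0 of 2 for Emr1. For Gpr125 it was 3 of 3, for Gpr116 2 of 2 and for Celsr1 1 of 1, a split made after seeing the data. Those marked in the authors' deposited table were Gpr125 circRNA2110 (A only, p = 0.0129), Celsr1 circRNA1211 (A only, p = 0.0412), Emr1 circRNA6075 (log2 fold change -2.44, p = 0.00311) and Gpr98 circRNA4115 (-4.19, p = 0.00686). Emr1 encodes a surface marker of macrophages and Celsr1 a planar polarity cadherin. Downstream of these receptors, the G protein alpha subunit and adenylyl cyclase genes had 43 circRNAs from 16 of 22 genes, 0 marked in the authors' deposited table. Of the 16 circRNAs seen in at least 2 libraries, 7 (43.8%) had the higher value in A. Over the catalogue that share was 70.1%. In either direction the mark was on 1.75% of all circRNAs.

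By the median log2 fold change of circRNAs with values in both groups, the hosts closest to Lphn3 (1.95 over 13) were Pard3, a cell polarity scaffold, at 1.95 over 7, Kcnh1, a potassium channel, at 1.97 over 5, and Fip1l1, a polyadenylation factor, at 1.94 over 5, as computed from the authors' deposited table among 367 hosts with at least 5 such values. Of these hosts 15 had a higher median than Lphn3. The authors' deposited table marks 3 of 24 circRNAs of Pard3, 1 of 14 of Kcnh1 and 0 of 10 of Fip1l1, beside 5 of 32 of Lphn3. As for Lphn3, all of their circRNAs seen in at least 2 libraries were higher in A (10 of 10, 8 of 8 and 5 of 5), against 70.1% over all circRNAs. These 3 hosts were picked for a median close to that of Lphn3, so the shared direction largely follows from the choice.

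**Figure D5:**
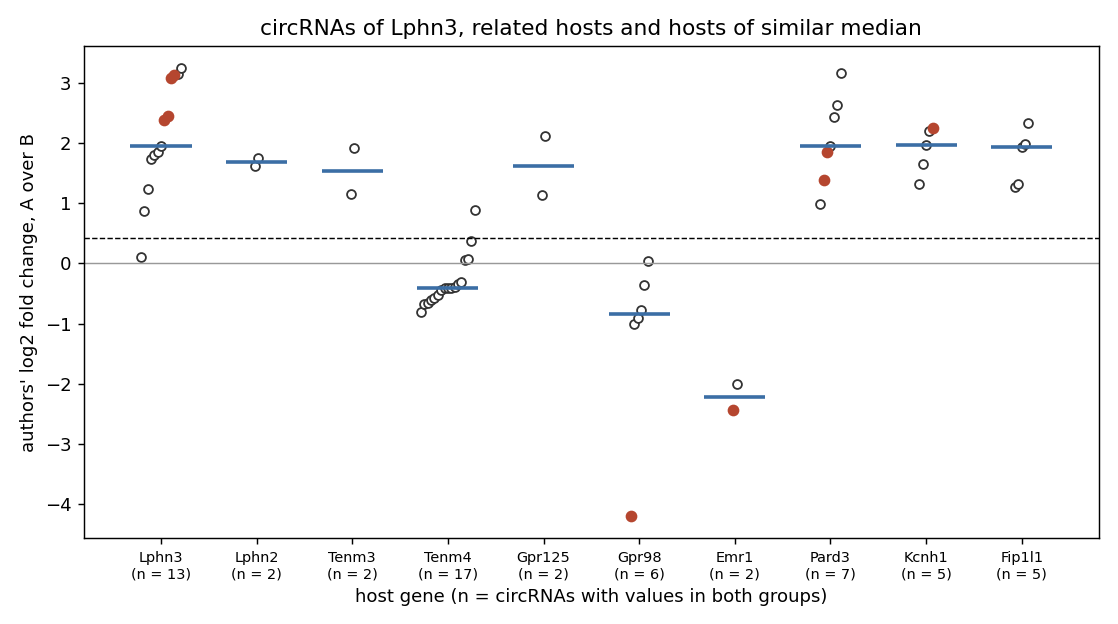
Points are circRNAs with values in both groups, at the authors' log2 fold change of A over B, for Lphn3, related hosts and the 3 hosts of closest median; bars are medians, filled points are marked circRNAs and the dashed line is the median of all circRNAs, 0.42. All 13 Lphn3 points lie above 0, and 13 of the 17 Tenm4 points lie below it.

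The labelled tissue could be set beside the catalogue only by which genes had circles. Hosts used in steroid-making cells (Cyp11a1, Lhcgr, Star and Nr5a1, 4 of 6 genes looked up), in granulosa cells (Cyp19a1, Nr5a2, Esr2 and Amhr2, 4 of 7) and in oocytes (Ddx4, Zp3 and Nlrp5, 3 of 7) had circRNAs listed. None was listed for Fshr, Inhba, Foxl2, Nobox, Figla, Gdf9, Dazl, Cyp17a1 or Hsd3b1. Depth per library is unknown here.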

How the data were processed

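RNase R-treated RNA of whole ovaries was sequenced in 6 libraries. Per the submitters' processing notes, the build was GRCm38, and Bowtie 0.12.2 is named there without a role. The sources used here name neither the circle caller and its filters nor the annotation and the authors' test. Per the file headers, the authors deposited a log2 fold change of group A over group B, a p-value and an adjusted p-value for each circRNA. A Benjamini-Hochberg adjustment of all deposited p-values gave the adjusted ones to within 1.52e-05. No table column names a sample: 24 columns of values per library and 2 of group means were set aside, although lines of them for other circRNAs had been seen. No interval or error of the values is given for that reason, and 1 line of each of the 2 tables was not analysed here.

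Circles were placed on GENCODE M21 isoforms with pandas 2.3.3, and 25798 of 26144 exonic circRNAs fitted the isoform the table names; placement was tested on simulated circles. A p equal to 0.423 (tolerance 1e-09) was read as a value in a single library. Exon identity was computed with edlib 1.3.9.post1. The members, the gene lists and the 12 nt rule for pairing exons of Lphn1 and Lphn2 were chosen with earlier results of these data known. Every Lphn3 circle is accounted for, the marked ones in full. From the lists, each host with a marked circRNA and each family or ligand host with any circRNA is named (1 gene of the ligand list is not reported here and is out of its counts), and the 3 most similar hosts have the closest median log2 fold change among those with at least 5 finite values.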

Additional observations from a re-analysis of the deposited data

How the results depend on the processing

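The count of 5 marked Lphn3 circles in the authors' deposited table stayed at 5 with a log2 fold change of 2 or more in size and with no fold threshold, and was 4 over circles with values in both groups. It was 2 with p under 0.01 and 0 with adjusted p under 0.05, by an unnamed test of the authors. At an unadjusted p under 0.05 there were 5 Lphn3 circles and 545 circRNAs in all. The share of circles higher in A was 100% for values in 2 or more libraries and in both groups, and 87.5% over all circles listed. The median log2 fold change of 1.95 became 1.54 after subtracting the median of all circRNAs, 0.42, and 1.80 over circles not marked. The flanking introns were 2.17 times the others, and 2.42 times for the upstream and 1.64 times for the downstream intron alone. They were 4.24 times the others on the isoform with the most exons that fits each circle. That isoform was ENSMUST00000121707, used to number exons, for 5 circles and another isoform of 27 exons for 27 circles. The catalogue's median was 2.69 on the named isoforms and on those with the most exons, so Lphn3 moved from below to above it; the catalogue's second value was added after seeing the data.

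No paired analysis was possible because the columns per library carry letters that match no sample label. Leaving out a library in turn was not run for the same reason. A search for inverted matches beside the circles was not run without a genome sequence. Depth per library is unknown, so absence from a group was not detectable as such.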
